A study of Mus musculus with 30 samples.

Results

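Levels of 10 inflammatory genes linked to the transcription factor NF-κB were followed in mouse tail fibroblasts exposed to 1 of 8 compounds or to DMSO. The genes were Saa3, Lcn2 and C3 (acute-phase proteins and complement), Il6 (a cytokine), Nos2 (inducible nitric oxide synthase), Icam1 and Vcam1 (adhesion molecules), Nfkbia and Tnfaip3 (inhibitors of the pathway) and Relb (a subunit of NF-κB itself). They were found by symbol among the 29861 genes of the deposited table, through the GENCODE M21 annotation of the mouse genome build GRCm38. All 10 had at least 1 TPM in at least 3 libraries and so were among the 13644 genes tested. Saa3 was chosen by its very high level, and Nos2 and Il6 were selected on their opposite changes between compounds, all measured in these same libraries, so these 3 genes are described here with no test. The other 7 were tested within a fit of all 13644 genes. All 10 were chosen with earlier results of these data known, so the 7 are not a list drawn independently of the data.

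NF-κB is a family of dimeric transcription factors that inhibitor proteins hold in the cytoplasm. Signals from receptors for TNF, interleukin-1 and microbial products activate a kinase complex that marks the inhibitors for destruction, and the freed dimers enter the nucleus and switch on inflammatory genes. Among these targets are the inhibitors themselves, which end the response. Fibroblasts are a known source of cytokines, complement and acute-phase proteins, and many of these genes also carry sites for C/EBP factors, which act together with NF-κB and STAT3.

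The cells were CCG-HTA-1, a primary tail fibroblast line from UMHet3 mice (a genetically mixed stock), used at passage 4. They were grown in high-glucose medium with 10% fetal calf serum and without pyruvate, at ambient oxygen, and were treated 24 hours after plating, at about 80% confluence. RNA was taken 48 hours after addition of Antimycin A (an inhibitor of mitochondrial complex III), Dihydrorotenone (an inhibitor of complex I), Diphenyleneiodonium Cl (an inhibitor of flavoenzymes), Cardamonin (a plant chalcone), BerberineA (spelled as in the labels), Clofilium tosylate (a potassium channel blocker), AEG 3482 (a compound described as an inhibitor of JNK signalling), Podofilox (which binds tubulin) or DMSO. There were 3 libraries for each compound and 6 for DMSO, although the series text speaks of 5 DMSO replicates. All 30 libraries came from 1 cell line, so the replicates are not separate animals, and p-values measure only the spread between these libraries, which may be technical. The donor mice were 5 to 8 weeks old, except that Dihydrorotenone replicate 1 is labelled 8 to 11 weeks. No doses are used here, so differences between compounds are differences between these treatments as given.

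The stretches of DNA just upstream of the genes are shown first, because sites for NF-κB and C/EBP commonly lie there. RefSeq promoter windows of GRCm38.p6 were matched for 7 of the 10 genes (Saa3, Lcn2, C3, Il6, Icam1, Nfkbia and Tnfaip3), 8 windows in all because Tnfaip3 has 2. The 250 bases before each start were searched on both strands for the κB consensus (10 bases) and for the C/EBP motif TTGCNNAA. Matches are in capitals below, and positions are counted back from the RefSeq start. The Il6 window is chr5:30012864-30013113 on the plus strand, with a C/EBP match at −128 to −121 and a κB match at −44 to −35. The Nfkbia window is chr12:55492648-55492897 on the minus strand, with a κB match at −29 to −20. The C3 window is chr17:57228137-57228386 and the Saa3 stretch of 226 bases is chr7:46715701-46715926, both on the minus strand, with C/EBP matches at −45 to −38 and −99 to −92. The RefSeq start of Saa3 lies inside the GENCODE gene, and the 24 bases of its window inside that gene are not printed. The Saa3 match position still counts these 24 bases. For Tnfaip3 and Lcn2 the RefSeq starts lie further inside the GENCODE gene, so only 30 bases around a match are shown. These lie at chr10:19015411-19015440 and chr2:32387936-32387965 on the minus strand.
Il6: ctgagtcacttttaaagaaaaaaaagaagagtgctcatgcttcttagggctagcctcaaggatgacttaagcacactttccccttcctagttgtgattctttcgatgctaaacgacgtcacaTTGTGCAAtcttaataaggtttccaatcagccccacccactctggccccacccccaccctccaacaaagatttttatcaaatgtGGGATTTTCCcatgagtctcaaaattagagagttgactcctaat
Nfkbia: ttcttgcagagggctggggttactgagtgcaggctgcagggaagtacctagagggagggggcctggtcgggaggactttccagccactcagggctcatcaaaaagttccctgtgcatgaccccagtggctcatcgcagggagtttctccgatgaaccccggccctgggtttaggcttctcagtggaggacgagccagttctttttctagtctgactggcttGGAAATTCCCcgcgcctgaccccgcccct
C3: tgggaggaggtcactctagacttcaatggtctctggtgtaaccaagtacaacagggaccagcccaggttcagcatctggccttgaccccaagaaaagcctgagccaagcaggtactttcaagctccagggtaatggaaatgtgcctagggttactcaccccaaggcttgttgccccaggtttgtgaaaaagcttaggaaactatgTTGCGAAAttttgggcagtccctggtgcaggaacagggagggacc
Saa3: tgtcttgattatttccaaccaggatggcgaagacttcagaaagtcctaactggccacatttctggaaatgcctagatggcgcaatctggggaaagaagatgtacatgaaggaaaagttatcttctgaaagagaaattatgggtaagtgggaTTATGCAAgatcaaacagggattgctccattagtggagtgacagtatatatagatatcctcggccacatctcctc
Tnfaip3: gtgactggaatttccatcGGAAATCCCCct
Lcn2: gcccttcctgTTGCTCAAccttgcacagtt

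A κB match stood in 3 of the 8 windows (Il6, Nfkbia and the first of Tnfaip3), and that Tnfaip3 window had a second one at −125 to −116. A C/EBP match stood in 4 of the 8 windows (Saa3, Lcn2, C3 and Il6), so Il6 had both. The Icam1 window and the other Tnfaip3 window, chr10:19011964-19012213, had neither. No κB match overlapped a C/EBP match. Over all 32851 RefSeq windows of the same length, 7.25% held a κB match and 9.56% held a C/EBP match. A match describes letters only, and a window with no match says nothing about a factor.

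Values are TPM, transcripts per 1000000 transcripts, which the authors computed with a correction for transcript length. A TPM is relative to all other transcripts of its library. The 29861 genes together held 927024 to 937134 TPM in each library, and the sequencing depth behind them is unknown. All 10 fibroblast markers were at 1 TPM or more in DMSO. Of 6 keratinocyte and epithelial markers, 5 stayed under 1 TPM in every library, with Krt5 alone at 0 throughout. Their summed level was 1.57 to 2.12 TPM in DMSO. All 5 skeletal muscle markers stayed under 1 TPM, with Myod1 alone at 0 throughout. Of 4 cartilage markers, 2 stayed under 1 TPM, and the summed list was 3.74 to 6.18 TPM in DMSO. It was 6.49 to 6.79 under Cardamonin, 7.15 to 7.87 under AEG 3482, 6.99 to 7.75 under Podofilox and 3.83 to 6.86 under the other 5 compounds. Of 11 macrophage and leukocyte markers, 5 stayed under 1 TPM in every library, among them Ptprc, but the summed level of the list, mostly Lyz2, was 157 to 213 TPM in the DMSO libraries. It was lower under every compound, at 55.4 to 69.8 TPM under Antimycin A, 89.3 to 103 under Podofilox, 112 to 132 under Cardamonin and 119 to 129 under AEG 3482. The list did not move as one: Lyz2 and Adgre1 fell under all 8 compounds, while Cd68 rose under Cardamonin to 254% of its DMSO mean and under BerberineA to 131%, and Aif1 passed the test only under AEG 3482, as lower.

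The summed fibroblast markers were 11948 to 13543 TPM in DMSO, 4800.3 to 5967 under Cardamonin, 13057 to 14424 under AEG 3482 and between 9036 and 11527 under the other 6 compounds, all below the DMSO range. All 10 fell under Cardamonin. Under AEG 3482 Col3a1 (174% of DMSO) and Vim (141%) rose while 6 others fell, among them Dcn (41.3%) and Lum (32.9%). Of 6 endothelial markers, 4 stayed under 1 TPM in every library, Pecam1 and Cdh5 among them, and the summed list was 6.13 to 9.86 TPM in DMSO, 2.23 to 2.93 under Cardamonin, 2.40 to 2.55 under AEG 3482 and 6.74 to 7.59 under Podofilox. Of the other pair, Tek fell under Cardamonin (8.56% of DMSO) and AEG 3482 (17.1%), and Vwf rose under Cardamonin (165%). The summed melanocyte markers were 4.54 to 6.93 TPM in DMSO, 1.27 to 1.83 under Cardamonin, 1.55 to 2.22 under AEG 3482 and 16.1 to 18.6 under Antimycin A. The part of these cell type markers in the results was not tested. In bulk RNA, fewer cells of a type and less RNA per cell cannot be told apart.

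Cardamonin and AEG 3482 lowered all 7 tested genes, Podofilox lowered 6 of them, and no compound raised any. Because the genes were chosen with earlier results of these data known, setting these counts beside the shares of all genes is descriptive. A difference was called when limma, a linear model fitted across all genes on log2(TPM + 1), gave a Benjamini-Hochberg adjusted p below 0.05. All 7 genes fell under Cardamonin, where 33.0% of all tested genes fell, and all 7 fell under AEG 3482, where 26.8% of all genes fell. Their median log2 difference from DMSO was −2.25 under Cardamonin and −2.56 under AEG 3482, against medians of 0.03 and 0.10 over all genes tested. Under Podofilox 6 of the 7 fell, all but Nfkbia, with a median of −0.28 against 0.04. In that comparison 2725 of all 13644 genes fell (46.2% passed in either direction and 26.2% rose).

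Under the other compounds the falls were smaller. Antimycin A lowered 5 of the 7 genes (15.5% of all genes fell), with a median of −0.28. Clofilium tosylate lowered 5 of the 7 (12.5% of all genes fell), with a median of −0.31. BerberineA lowered Lcn2, Nfkbia and Tnfaip3, 3 of the 7 (9.16% of all genes fell), with a median of −0.13. Diphenyleneiodonium Cl lowered Lcn2 and Nfkbia, 2 of the 7 (11.7% of all genes fell), and Dihydrorotenone lowered Lcn2 and Nfkbia, 2 of the 7 (9.43% of all genes fell), with medians of −0.04 and −0.14. Over all genes tested, the medians of these 5 comparisons lay between −0.03 and 0.03. The count for Antimycin A was 3 without Antimycin A replicate 1, without its replicate 2 or without DMSO replicate 3. The count for Clofilium tosylate was 3 without its replicate 1. For Dihydrorotenone it was 1 without its replicate 2 or 3, or without DMSO replicate 2, 3 or 5. The 8 comparisons share the 6 DMSO libraries and are therefore not independent of each other.

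**Figure D1:**
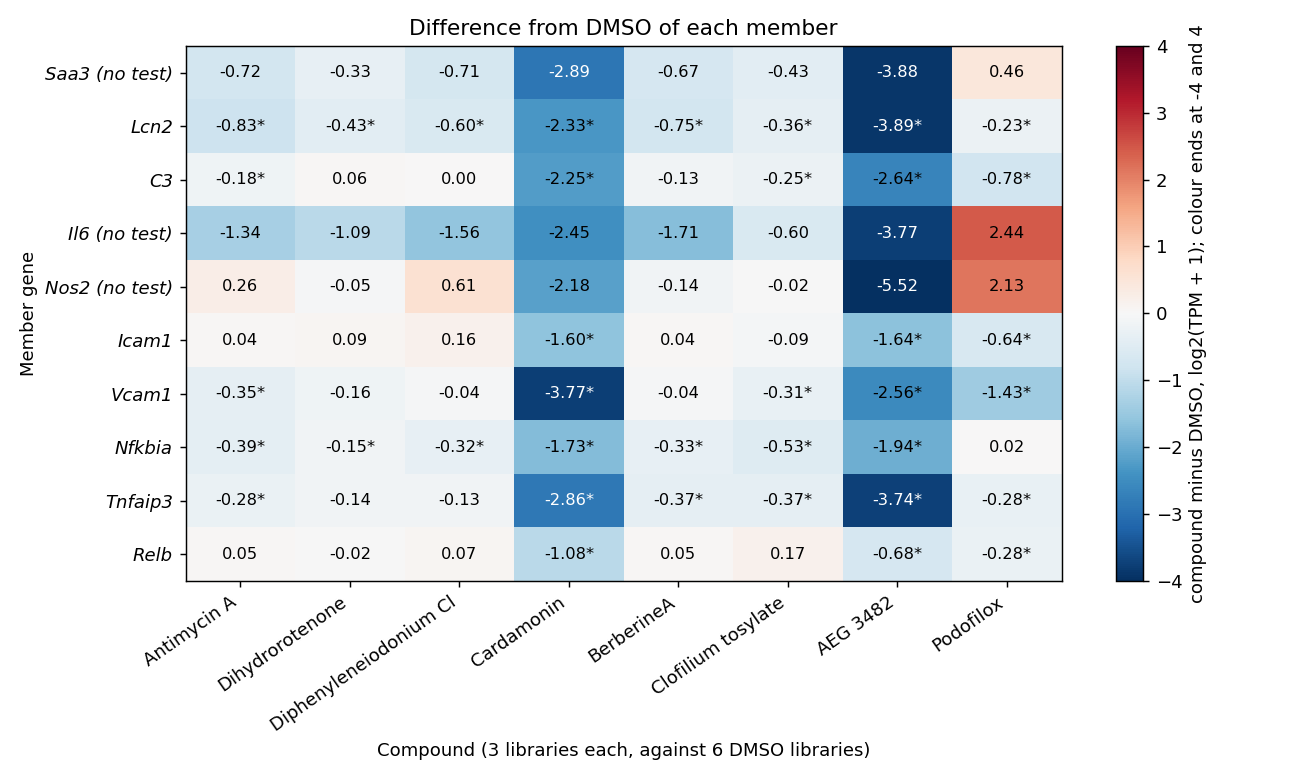
Difference of each compound from DMSO on the log2(TPM + 1) scale, with genes in rows and compounds in columns (3 libraries each against 6); red is higher, blue is lower, and an asterisk marks a limma adjusted p below 0.05. The 7 tested genes are marked in every row of the Cardamonin and AEG 3482 columns, and the 3 genes with no test span −5.52 (Nos2, AEG 3482) to 2.44 (Il6, Podofilox).

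Saa3 (ENSMUSG00000040026, chr7:46711998-46715700, minus strand) encodes serum amyloid A3, an acute-phase protein made outside the liver. It was the most abundant of all listed genes in 22 of the 30 libraries, and its lowest rank was 39. In the 6 DMSO libraries it ranged from 29576 to 34957 TPM, with a median of 32566, or 2.96% to 3.50% of all transcripts. Podofilox gave 40789, 46533 and 46231 TPM, all above the DMSO range.

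Every library of the other 7 compounds lay below the DMSO range of Saa3. Dihydrorotenone gave 27086, 24691 and 25274 TPM, and Clofilium tosylate 25666, 23585 and 22544. BerberineA gave 19019, 22439 and 19506 TPM, Diphenyleneiodonium Cl 19740.5, 18392 and 21067, and Antimycin A 17940.1, 19914 and 20874. Cardamonin gave 5373, 5121 and 3033 TPM, and AEG 3482 gave 2335, 2230.3 and 2033. The mean was thus 138% of the DMSO mean under Podofilox, 13.9% under Cardamonin and 6.79% under AEG 3482. In the order of means from Podofilox through DMSO, Dihydrorotenone, Clofilium tosylate, BerberineA, Diphenyleneiodonium Cl, Antimycin A and Cardamonin to AEG 3482, the libraries of neighbouring groups overlapped in 3 of 8 places, all among the 5 compounds in the middle. Because Saa3 was first in most libraries, quantile normalization, which gives every library the same set of values, sets its log2 difference to 0.00 for Podofilox, against 0.46 as deposited, and also to 0.00 for Dihydrorotenone, Clofilium tosylate and BerberineA and to −0.12 for Antimycin A and Diphenyleneiodonium Cl, while Cardamonin (−2.42) and AEG 3482 (−3.43) stayed well below DMSO.

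Lcn2 (ENSMUSG00000026822, chr2:32384633-32388252, minus strand) encodes lipocalin-2, which binds the iron carriers of bacteria. It was the only one of the 7 tested genes called under all 8 compounds, always lower than DMSO. The DMSO libraries ranged from 2027 to 2803 TPM with a median of 2417. AEG 3482 gave 162, 153 and 167 TPM, a log2 difference of −3.89 ± 0.08 (SE, adjusted p = 2.6e-22, limma). Cardamonin gave 501, 543 and 397 TPM, a difference of −2.33 ± 0.08 (adjusted p = 2.0e-18). Both groups lay far below DMSO, and AEG 3482 lay below Cardamonin by 1.56 on the log2 scale.

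The middle group of compounds lowered Lcn2 by less. Antimycin A gave 1348, 1385 and 1323 TPM (log2 difference −0.83 ± 0.08, limma adjusted p = 1.4e-08). BerberineA gave 1255, 1545 and 1509 TPM (−0.75), and Diphenyleneiodonium Cl 1546, 1539 and 1684 (−0.60). Dihydrorotenone gave 1836, 1784 and 1728 TPM (−0.43), and Clofilium tosylate 1797, 1988 and 1824 (−0.36). All of these libraries lay below the DMSO range. Podofilox, at 2052, 2122 and 1969 TPM, overlapped the DMSO range, and its difference of −0.23 ± 0.08 (limma adjusted p = 0.024) was lost without DMSO replicate 5, Podofilox replicate 1 or Podofilox replicate 3 (adjusted p between 0.058 and 0.099) and under quantile normalization (−0.12, adjusted p = 0.33), with a range of 0.0042 to 0.33 over 19 alternatives.

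C3 (ENSMUSG00000024164, chr17:57203970-57228136, minus strand) encodes complement component 3, on which all routes of complement activation meet. Its DMSO libraries ranged from 966 to 1271 TPM with a median of 1071. Cardamonin gave 213, 236 and 232 TPM (log2 difference −2.25 ± 0.07, limma adjusted p = 7.7e-20). AEG 3482 gave 179.9, 171 and 168 TPM (−2.64 ± 0.07, adjusted p = 7.4e-21). Podofilox gave 649, 599.6 and 646 TPM (−0.78 ± 0.07, adjusted p = 7.8e-10). These 3 groups lay wholly below DMSO, and no 2 of them overlapped.

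The libraries of the other 5 compounds overlapped those of DMSO in C3. Clofilium tosylate gave 874, 974 and 887 TPM (log2 difference −0.25 ± 0.07, limma adjusted p = 0.0087), and the call was lost without Clofilium tosylate replicate 1 (adjusted p = 0.054) and in a fit of these 2 groups alone (adjusted p = 0.071), with a range of 0.0027 to 0.071 over 19 alternatives. Antimycin A gave 961, 916 and 979 TPM (−0.18 ± 0.07, adjusted p = 0.035). That call was lost in 8 of 19 alternatives, among them without any 1 of its 3 libraries or without DMSO replicate 1, 3 or 5 (adjusted p between 0.051 and 0.14), with a range of 0.0033 to 0.14 over all of them. BerberineA (mean 990.0 TPM), Diphenyleneiodonium Cl (1085 TPM) and Dihydrorotenone (1128 TPM) did not pass the test, and the 95% interval of the last difference ran from −0.08 to 0.20.

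**Figure D2:**
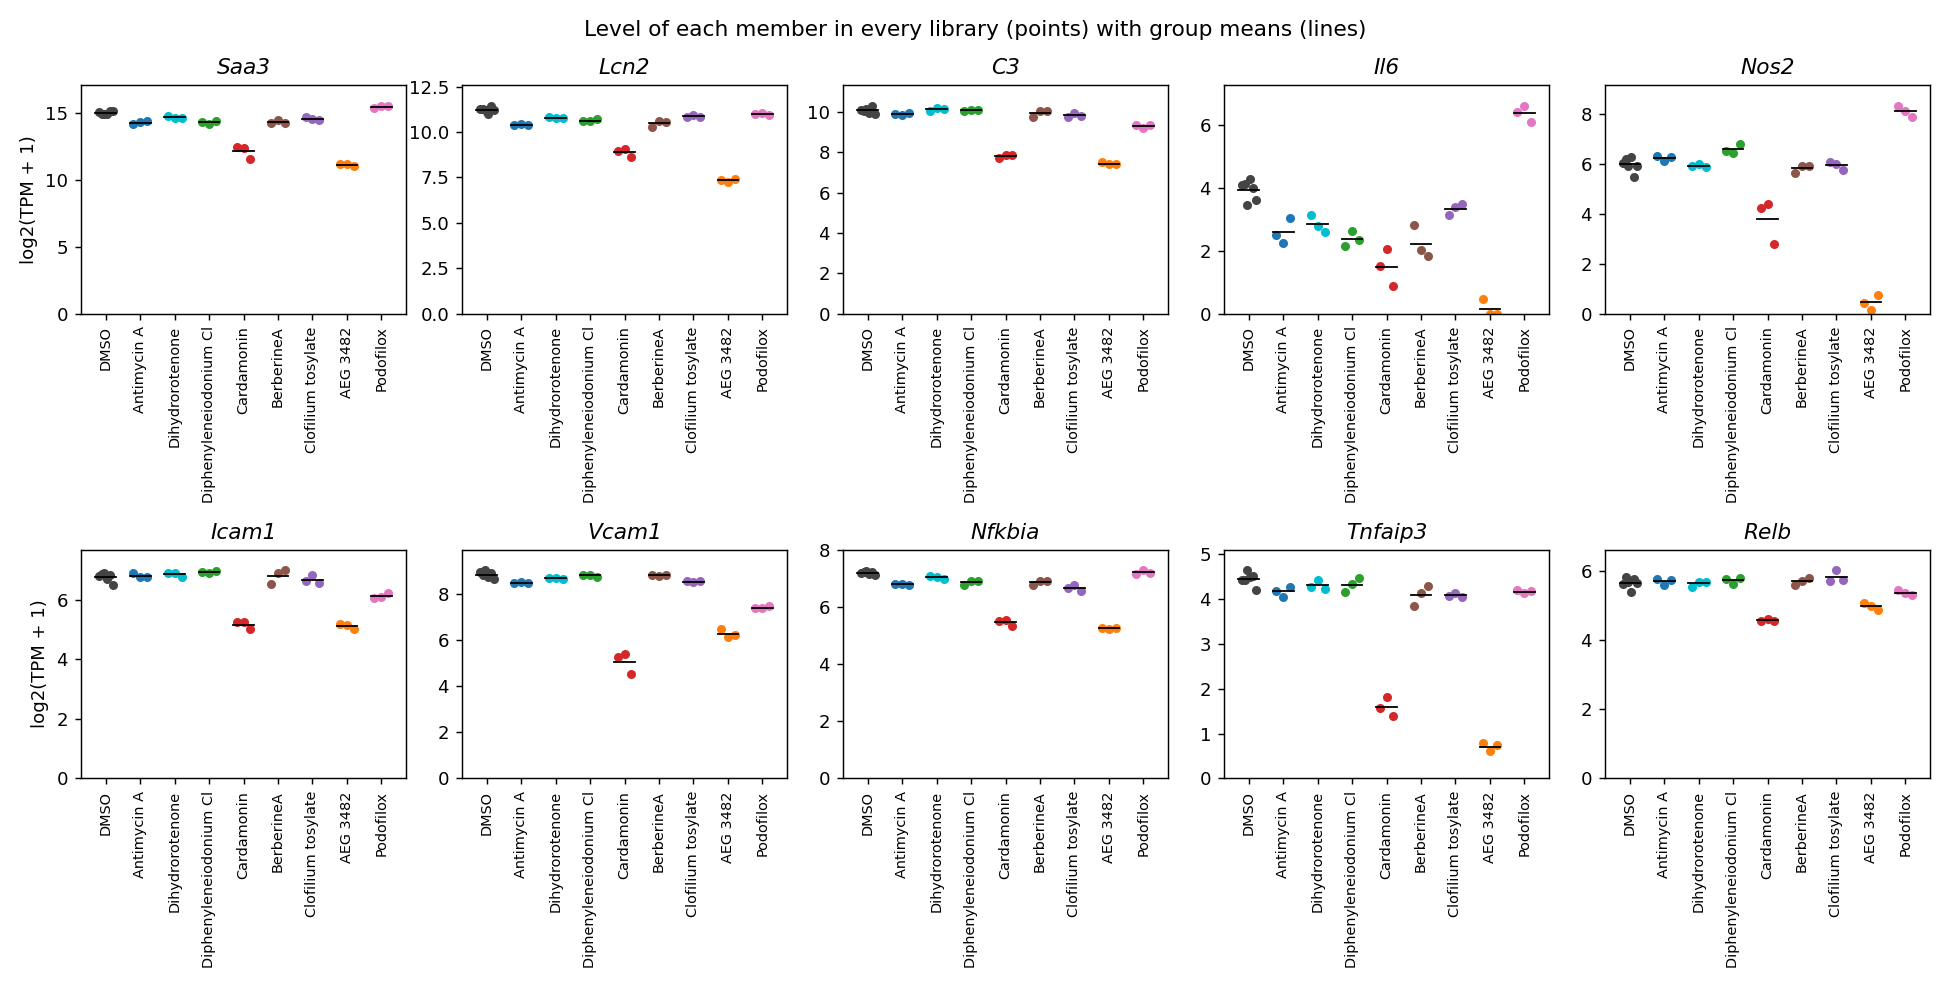
Level of each gene in log2(TPM + 1) on the vertical axis, with the 9 groups along the horizontal axis; points are libraries (6 for DMSO, 3 for each compound), lines are group means, and each panel has its own scale from 0. Cardamonin and AEG 3482 have the lowest or next lowest mean in all 10 panels, and Podofilox stands highest for Saa3, Il6, Nos2 and, by a margin inside the spread, Nfkbia.

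Il6 (ENSMUSG00000025746, chr5:30013114-30019981, plus strand) encodes interleukin-6, the cytokine that drives acute-phase genes through STAT3. It was far less abundant than Saa3, at 10.0 to 18.5 TPM in DMSO with a median of 15.5. Podofilox gave 84.5, 96.6 and 67.8 TPM, and AEG 3482 gave 0.389, 0 and 0. Podofilox was thus at 569% of the DMSO mean, while in 2 of the 3 AEG 3482 libraries Il6 was listed at 0.

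The other 6 compounds had lower means of Il6 than DMSO, and 5 of them lay wholly below its range. Cardamonin gave 1.88, 3.16 and 0.827 TPM, BerberineA 6.02, 3.06 and 2.54, and Diphenyleneiodonium Cl 3.48, 5.13 and 4.01. Antimycin A gave 4.63, 3.78 and 7.19 TPM, and Dihydrorotenone 7.86, 5.84 and 5.06. Clofilium tosylate, at 7.70, 9.56 and 10.1 TPM, just reached the lowest DMSO library. From DMSO down to Cardamonin each group overlapped its neighbour in the order of means, so in 6 of 8 places the order is not beyond the spread. Differences of so low a gene depend on the constant added before the logarithm: for AEG 3482 the log2 difference was −3.77 with 1 TPM added, −6.40 with 0.1 and −1.92 with 5.

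Nos2 (ENSMUSG00000020826, chr11:78920787-78960254, plus strand) encodes the inducible enzyme that makes nitric oxide. DMSO libraries ranged from 44.0 to 76.0 TPM with a median of 62.3. Podofilox gave 319.6, 274 and 233 TPM, 439% of the DMSO mean, and AEG 3482 gave 0.348, 0.120 and 0.692 TPM, 0.617% of it. Cardamonin gave 17.6, 19.9 and 5.93 TPM. The first of these groups lay above DMSO and the other two lay below it, with no overlap.

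Diphenyleneiodonium Cl, at 90.8, 85.2 and 111 TPM, was the only other compound whose Nos2 libraries all lay above DMSO, while its Il6 libraries all lay below. Antimycin A gave 78.3, 67.8 and 76.1 TPM, Dihydrorotenone 58.5, 62.6 and 58.0, BerberineA 49.2, 59.7 and 59.8, and Clofilium tosylate 66.5, 63.0 and 53.5. All 4 overlapped the DMSO range of Nos2. Il6 and Nos2 were therefore both highest under Podofilox and both lowest under AEG 3482, but Antimycin A, Dihydrorotenone and BerberineA had Il6 below the DMSO range and Nos2 overlapping it. Cardamonin replicate 3 was the lowest of its group in 9 of the 10 genes, and without it the log2 difference of Nos2 was −1.67 instead of −2.18.

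**Figure D3:**
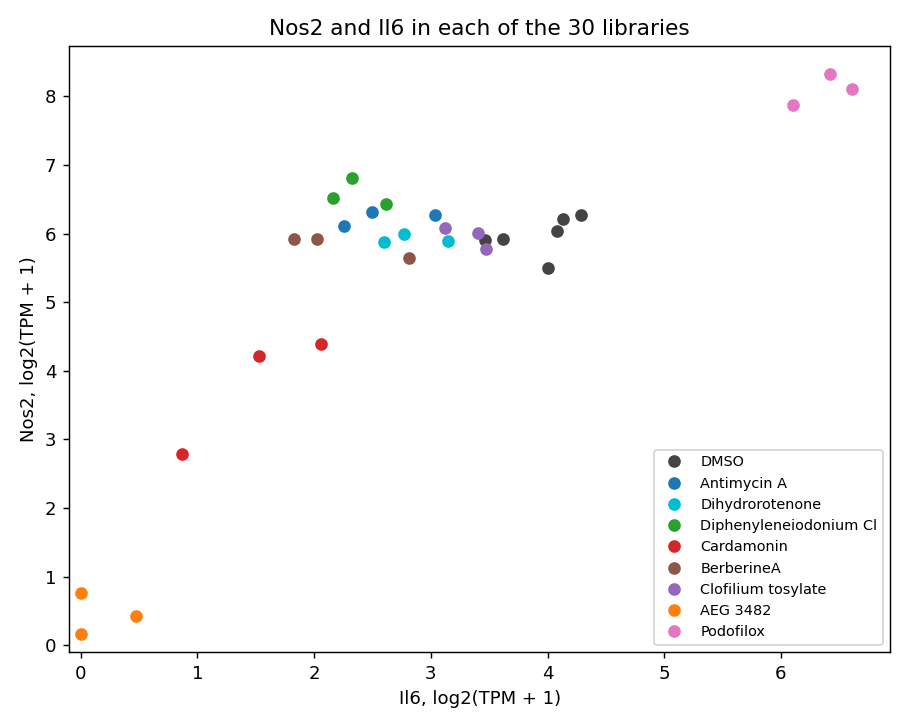
Nos2 against Il6 in log2(TPM + 1), with 1 point for each of the 30 libraries coloured by group. The 3 Podofilox libraries lie at the upper right and the 3 AEG 3482 libraries at the lower left, while the Diphenyleneiodonium Cl libraries lie left of DMSO and above it.

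Icam1 (ENSMUSG00000037405, chr9:21015985-21028817, plus strand) and Vcam1 (ENSMUSG00000027962, chr3:116109949-116129688, minus strand) encode surface proteins that bind the integrins of leukocytes. Icam1 ranged from 88.4 to 118 TPM in DMSO with a median of 112. It was 36.8, 36.8 and 31.6 TPM under Cardamonin (log2 difference −1.60 ± 0.09, limma adjusted p = 1.5e-14) and 35.5, 34.9 and 31.6 under AEG 3482 (−1.64 ± 0.09, adjusted p = 1.6e-14). Podofilox gave 65.9, 67.1 and 73.1 TPM (−0.64 ± 0.09, adjusted p = 1.3e-06). These 3 groups lay below DMSO, and Cardamonin and AEG 3482 overlapped each other.

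The other 5 compounds did not pass the test for Icam1, with means from 102 TPM (Clofilium tosylate) to 121 TPM (Diphenyleneiodonium Cl). All 3 Diphenyleneiodonium Cl libraries (121, 118 and 124 TPM) lay above the DMSO range, but the log2 difference was 0.16 (95% interval −0.02 to 0.34, limma adjusted p = 0.19). Of the 31-base words of Icam1 transcripts, 14.8% also occur in other genes, and 11.2% occur in Gm47079, an antisense gene that overlaps 511 bases of it. Whether the counting used strand is not given in the sources used here, so the level of Icam1 is uncertain to that extent. Vcam1 overlaps the antisense gene Gm43109 over 1238 bases, but only 1.87% of its transcript words occur in any other gene.

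Vcam1 was lowest under Cardamonin, below AEG 3482 and with no overlap, whereas Icam1 did not separate these 2 compounds. The DMSO libraries of Vcam1 ranged from 390.4 to 511 TPM with a median of 459. Cardamonin gave 37.1, 40.3 and 22.2 TPM (log2 difference −3.77 ± 0.11, limma adjusted p = 4.1e-20), the largest difference of any tested gene of the 7 under that compound. AEG 3482 gave 86.5, 68.4 and 73.8 TPM (−2.56 ± 0.11, adjusted p = 1.8e-16). Podofilox gave 163, 166 and 173 TPM (−1.43 ± 0.11, adjusted p = 7.5e-11). The 3 groups did not overlap each other or DMSO.

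Antimycin A gave 347, 366 and 349 TPM of Vcam1 (log2 difference −0.35 ± 0.11, limma adjusted p = 0.013) and Clofilium tosylate 373, 357 and 369 (−0.31 ± 0.11, adjusted p = 0.046). Both groups lay below the DMSO range. The Clofilium tosylate call was lost in 11 of 19 alternatives, among them without any 1 of its libraries or without DMSO replicate 1, 2, 3 or 5 (adjusted p between 0.056 and 0.14), and the range over all alternatives was 0.023 to 0.14. Dihydrorotenone (406 TPM), Diphenyleneiodonium Cl (440.1 TPM) and BerberineA (442 TPM) overlapped DMSO and did not pass the test. Vcam1 was thus below 100 TPM only under Cardamonin and AEG 3482.

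Nfkbia (ENSMUSG00000021025, chr12:55489410-55492647, minus strand) encodes IκBα, the inhibitor that NF-κB itself induces. Relative to its mean it had the smallest spread of the 10 genes in DMSO (SD 3.38% of the mean), from 138 to 151 TPM with a median of 146. AEG 3482 gave 37.2, 36.9 and 36.9 TPM (log2 difference −1.94 ± 0.05, limma adjusted p = 5.8e-21), and Cardamonin gave 44.9, 45.2 and 39.2 (−1.73 ± 0.05, adjusted p = 2.3e-20). Clofilium tosylate was next lowest, at 101, 107 and 93.7 TPM (−0.53 ± 0.05, adjusted p = 2.0e-08). All 3 groups lay below DMSO and apart from each other.

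Antimycin A gave 111, 111 and 108 TPM of Nfkbia (log2 difference −0.39), BerberineA 108, 120.0 and 118 (−0.33), and Diphenyleneiodonium Cl 108, 119.8 and 119.5 (−0.32). Their limma adjusted p lay between 5.3e-07 and 1.8e-05, and every library was below the DMSO range. Dihydrorotenone gave 136, 132 and 124 TPM, also below DMSO (−0.15 ± 0.05, adjusted p = 0.039). This call was lost in 10 of 19 alternatives, among them without Dihydrorotenone replicate 2 or 3 or DMSO replicate 2, 3 or 5 (adjusted p between 0.066 and 0.19), and the range over all of them was 0.026 to 0.19. Podofilox, at 143, 154 and 144 TPM, overlapped DMSO, with a log2 difference of 0.02 (95% interval −0.09 to 0.12). Nfkbia was the only one of the 7 tested genes that Podofilox did not lower.

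Tnfaip3 (ENSMUSG00000019850, chr10:19000910-19015657, minus strand) encodes a ubiquitin-editing enzyme that shuts down signalling from TNF and Toll-like receptors. It was a low gene, at 17.4 to 23.8 TPM in DMSO with a median of 21.0. AEG 3482 gave 0.720, 0.520 and 0.668 TPM (log2 difference −3.74 ± 0.10, limma adjusted p = 7.4e-21), and Cardamonin gave 1.97, 2.50 and 1.63 (−2.86 ± 0.10, adjusted p = 6.9e-19). These means were 3.04% and 9.72% of the DMSO mean. The log2 scale with 1 TPM added understates such a change, and with 0.1 TPM added the differences were −4.84 and −3.31.

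Clofilium tosylate gave 15.8, 16.5 and 15.4 TPM of Tnfaip3 and lay below DMSO (log2 difference −0.37, limma adjusted p = 0.0059). BerberineA (13.3, 16.5 and 18.5 TPM, −0.37, adjusted p = 0.0066), Podofilox (17.4, 16.4 and 17.0 TPM, −0.28, adjusted p = 0.018) and Antimycin A (17.2, 15.6 and 18.4 TPM, −0.28, adjusted p = 0.025) overlapped DMSO. The BerberineA call was lost without BerberineA replicate 1 (adjusted p = 0.098, range 0.00068 to 0.098 over 19 alternatives). The Podofilox call was lost without Podofilox replicate 2 (adjusted p = 0.064, range 0.0017 to 0.064). The Antimycin A call was lost in 4 of 19 alternatives, 3 of them without Antimycin A replicate 1 or 2 or DMSO replicate 3 (adjusted p between 0.055 and 0.14, range over all 0.0026 to 0.14). Dihydrorotenone and Diphenyleneiodonium Cl, with means of 18.8 and 19.0 TPM, did not pass the test.

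Relb (ENSMUSG00000002983, chr7:19606217-19629438, minus strand) encodes the subunit of NF-κB that carries the slower, non-canonical branch of the pathway. It varied least between groups, with a highest mean 2.45 times the lowest. DMSO libraries ranged from 41.0 to 54.9 TPM with a median of 49.6. Cardamonin gave 22.5, 23.1 and 22.2 TPM (log2 difference −1.08 ± 0.08, limma adjusted p = 1.8e-12), and AEG 3482 gave 32.6, 30.2 and 28.1 (−0.68 ± 0.08, adjusted p = 1.7e-08). Both lay below DMSO and apart from each other.

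Podofilox gave 42.2, 40.0 and 38.4 TPM of Relb, which met the lower end of the DMSO range (log2 difference −0.28 ± 0.08, limma adjusted p = 0.0036). The other 5 compounds overlapped DMSO and did not pass the test. Clofilium tosylate had the highest mean of Relb, at 55.4 ± 6.65 TPM (SD, n = 3), with a log2 difference of 0.17 (95% interval 0.01 to 0.32 before adjustment, adjusted p = 0.11). Relb and Vcam1 were the 2 genes of the 10 with their lowest mean under Cardamonin, and the other 8 were lowest under AEG 3482.

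The compounds were then compared with each other in the same fit. A limma F test of equal means among the 8 compounds was passed by all 7 tested genes, but also by 84.9% of all genes, so this is close to the background. Over the 28 pairs of compounds and 7 genes, 126 of 196 differences passed, against 38.7% of the differences of all genes. Nfkbia differed in 21 of 28 pairs, the most of the 7, and Tnfaip3 in 13, the fewest.

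Cardamonin and AEG 3482 differed in 6 of 7 genes (55.3% of all genes differed between them). Lcn2 (log2 difference of Cardamonin minus AEG 3482 of 1.56), Tnfaip3 (0.88), C3 (0.39) and Nfkbia (0.21) were higher under Cardamonin. Vcam1 (−1.21) and Relb (−0.40) were lower under Cardamonin, each with a limma adjusted p of 0.0027 or less over these 6 genes. Icam1 did not pass, with a difference of 0.04 (95% interval −0.17 to 0.25). Cardamonin and Podofilox differed in all 7 genes (57.8% of all genes), and so did AEG 3482 and Podofilox (60.3%). The 2 compounds that lowered these genes most thus left them in different proportions to each other.

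Among the 10 pairs of the 5 other compounds, 0 to 3 of the 7 genes differed. None differed between Antimycin A and Diphenyleneiodonium Cl (6.04% of all genes), Antimycin A and BerberineA (9.04%), Dihydrorotenone and Diphenyleneiodonium Cl (3.68%), Dihydrorotenone and BerberineA (1.51%), or Diphenyleneiodonium Cl and BerberineA (0.623%). By an unadjusted p under 0.05 the counts were 3, 1, 1, 3 and 1 of 7 in the same order, so these counts do not show that the compounds act alike. Between Antimycin A and Diphenyleneiodonium Cl the 95% interval before adjustment of Vcam1 ran from −0.58 to −0.05 and that of Lcn2 from −0.43 to −0.03. Antimycin A was below Dihydrorotenone in Lcn2 (−0.40), C3 (−0.24) and Nfkbia (−0.24), 3 of 7 genes (15.5% of all genes differed), with limma adjusted p of 0.0051, 0.034 and 0.0042. Clofilium tosylate was below Dihydrorotenone in Nfkbia and C3 (2.46% of all genes differed), with Dihydrorotenone higher by 0.38 and 0.31. It was above Antimycin A and above BerberineA in Lcn2 alone (5.21% and 2.81% of all genes differed), by limma adjusted p of 0.0045 and 0.024. It was below Diphenyleneiodonium Cl in Nfkbia alone (3.15% of all genes differed, adjusted p = 0.047), although 6 of the 7 genes had an unadjusted p under 0.05 in that pair.

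Of 80 other genes of the pathway, 76 were tested, and Sele and Selp were among the 4 that were not. The 2 genes described below from each tested list had its largest ranges of group means in these same libraries. They are the extremes of their lists, not typical members, so their p-values are not given. Under Cardamonin 23 of the 76 rose and 45 fell, under AEG 3482 19 rose and 47 fell, and under Podofilox 30 rose and 20 fell. Over all genes, 37.3% rose and 33.0% fell under Cardamonin, and 41.3% rose and 26.8% fell under AEG 3482. For Podofilox 26.2% rose, 2725 of 13644 genes fell, and 46.2% passed in either direction. Antimycin A gave 14 higher and 24 lower (21.8% and 15.5% of all genes), Diphenyleneiodonium Cl 9 and 13 (14.0% and 11.7%), BerberineA 8 and 17 (12.6% and 9.16%), Clofilium tosylate 6 and 15 (10.9% and 12.5%) and Dihydrorotenone 1 and 9 (4.95% and 9.43%). These splits move with the scaling of the libraries. Median-ratio scaling lowered the median of all genes under AEG 3482 by 0.10 on the log2 scale and gave 15 higher and 50 lower, and under Dihydrorotenone it gave 5 higher and 8 lower and for BerberineA 6 and 22. The share of all called genes that were higher then went from 60.7% to 49.4% for AEG 3482, from 34.4% to 50.7% for Dihydrorotenone and from 57.9% to 47.7% for BerberineA.

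Among ligands, 5 of 7 fell and 1 rose under Cardamonin (33.0% and 37.3% of all genes) and likewise under AEG 3482 (26.8% and 41.3%). Of the same 7, 3 fell and 3 rose under Podofilox (2725 and 3573 of all 13644 genes). Il33, an alarmin of the interleukin-1 family, fell from 40.1 TPM in DMSO to 3.09 under Cardamonin and 3.07 under AEG 3482 (log2 difference −3.33 in both), and to 11.7 under Podofilox (−1.68). Il11, a cytokine related to interleukin-6, was 4.58 TPM in DMSO and rose to 22.4 under Podofilox (2.04 ± 0.23). Its values of 5.59 and 3.98 TPM under Cardamonin and AEG 3482 did not pass. Among 13 receptors, 6 rose and 6 fell under Cardamonin (37.3% and 33.0% of all genes), a split not far from that of all genes, and 3 rose and 9 fell under AEG 3482 (41.3% and 26.8%). Il1r1, the signalling receptor for interleukin-1, fell from 154 TPM to 23.1 under Cardamonin (−2.75) and 68.9 under AEG 3482 (−1.15). Tlr2, a receptor for bacterial lipoproteins, fell from 114 TPM to 42.8 under Cardamonin (−1.40) and 8.99 under AEG 3482 (−3.53), and did not pass under Podofilox. It rose under the other 5 compounds, most under Antimycin A, to 199 TPM (0.80), and Diphenyleneiodonium Cl, to 166 TPM (0.54).

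Among the signalling proteins between receptor and NF-κB, more genes rose than fell under Cardamonin and AEG 3482. Of 14 adaptors and kinases, 10 rose and 2 fell under Cardamonin (37.3% and 33.0% of all genes), 12 rose and 1 fell under AEG 3482 (41.3% and 26.8%), and none passed limma under Dihydrorotenone (1 of 14 had an unadjusted p under 0.05). Under the 3 other scalings, the counts were 8 or 9 higher and 2 lower for Cardamonin and 10 higher and 2 lower for AEG 3482. Ikbkg, the scaffold of the kinase complex that marks IκBα, was 81.4 TPM in DMSO. It rose to 229 under Cardamonin (log2 difference 1.50 ± 0.09) and 177 under AEG 3482 (1.12 ± 0.09). The Ikbkg gene overlaps G6pdx on the opposite strand over 19712 bases, and reads of the pair may not be told apart. Map3k14, the kinase of the non-canonical branch, fell from 12.1 TPM to 9.70 under Cardamonin (−0.30) and rose to 20.1 under AEG 3482 (0.69).

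Of the 4 other NF-κB subunits, 3 fell and none rose under Cardamonin (33.0% and 37.3% of all genes). Under AEG 3482 3 also fell and none rose (26.8% and 41.3%). Under Podofilox 2 rose and 2 fell (3573 and 2725 of all 13644 genes). A list of 4 genes is too small to compare with the shares of all genes. Nfkb1 fell from 103 TPM to 53.3 under Cardamonin (log2 difference −0.94) and 67.8 under AEG 3482 (−0.60), and rose to 121 under Podofilox (0.22). Nfkb2 fell from 48.3 TPM to 24.3 (−0.96), 40.6 (−0.24) and 38.8 (−0.31) under the same compounds. Rela, named after its values were seen, encodes the main activating subunit and did not pass the test under Cardamonin (−0.09, limma adjusted p = 0.19) or AEG 3482 (0.00, adjusted p = 0.95), but rose under Podofilox (0.57, adjusted p = 8.1e-09). The result for Rela depends on the scaling. With median-ratio scaling and with quantile normalization all 4 subunits, Rela included, fell under Cardamonin and under AEG 3482. After rescaling without the 20 most abundant genes 3 fell under each, as with the deposited values. Relb was the subunit among the 10 genes and fell under Cardamonin, AEG 3482 and Podofilox.

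Most other inhibitors and feedback regulators fell under Cardamonin and AEG 3482. Of 17, 12 fell and 3 rose under Cardamonin (33.0% and 37.3% of all genes), and 12 fell and 2 rose under AEG 3482 (26.8% and 41.3%). Irak3, a brake on Toll-like receptor signalling, fell from 25.5 TPM to 4.70 (log2 difference −2.23) and 5.57 (−2.01), and Birc3, a ubiquitin ligase of the TNF receptor complex, from 78.1 to 21.5 (−1.82) and 18.6 (−2.01). Under Podofilox Irak3 was 24.5 TPM and did not pass, and Birc3 fell to 59.9 (−0.37). Among 6 C/EBP and STAT3 partners, 4 fell and 1 rose under Cardamonin (33.0% and 37.3% of all genes). Under AEG 3482 3 fell and 1 rose (26.8% and 41.3%). Under Podofilox 1 fell and 4 rose (2725 and 3573 of all 13644 genes). With median-ratio scaling and with quantile normalization 3 rose under Podofilox. These 6 genes are too few to compare with the shares of all genes. Jak2, a kinase of cytokine receptors, fell from 56.4 TPM to 15.9 (−1.76), 17.0 (−1.67) and 36.0 (−0.63) under the 3 compounds. Socs3, a feedback inhibitor of interleukin-6 signalling, fell from 126 TPM to 41.2 (−1.62) under Cardamonin and 43.1 (−1.52) under AEG 3482.

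Most other acute-phase and innate effectors were also lower under these 2 compounds. Of 15, 13 fell and 2 rose under Cardamonin (33.0% and 37.3% of all genes), and 14 fell and none rose under AEG 3482 (26.8% and 41.3%). The medians were −1.57 and −2.14 on the log2 scale. Under Podofilox 5 rose and 5 fell, a split not far from that of all genes (3573 of 13644 rose and 2725 fell). Ptx3, a soluble pattern receptor, fell from 733 TPM to 35.5 under Cardamonin (−4.35 ± 0.10) and 50.5 under AEG 3482 (−3.83 ± 0.10). It rose to 936 under Podofilox (0.36). Steap4, a metalloreductase induced in inflammation, fell from 739.5 TPM to 92.8 (−3.02), 41.8 (−4.13) and 373 (−0.97) under the same compounds. Of the transcript words of Nfkb2, 10.6% occur in AC114539.1 on the opposite strand, and 3.60% of those of Irak3 occur in Tmbim4, against 4.42% of those of Ikbkg in G6pdx, so the levels of these 3 genes are uncertain to that extent. Ptx3 shares none.

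**Figure D4:**
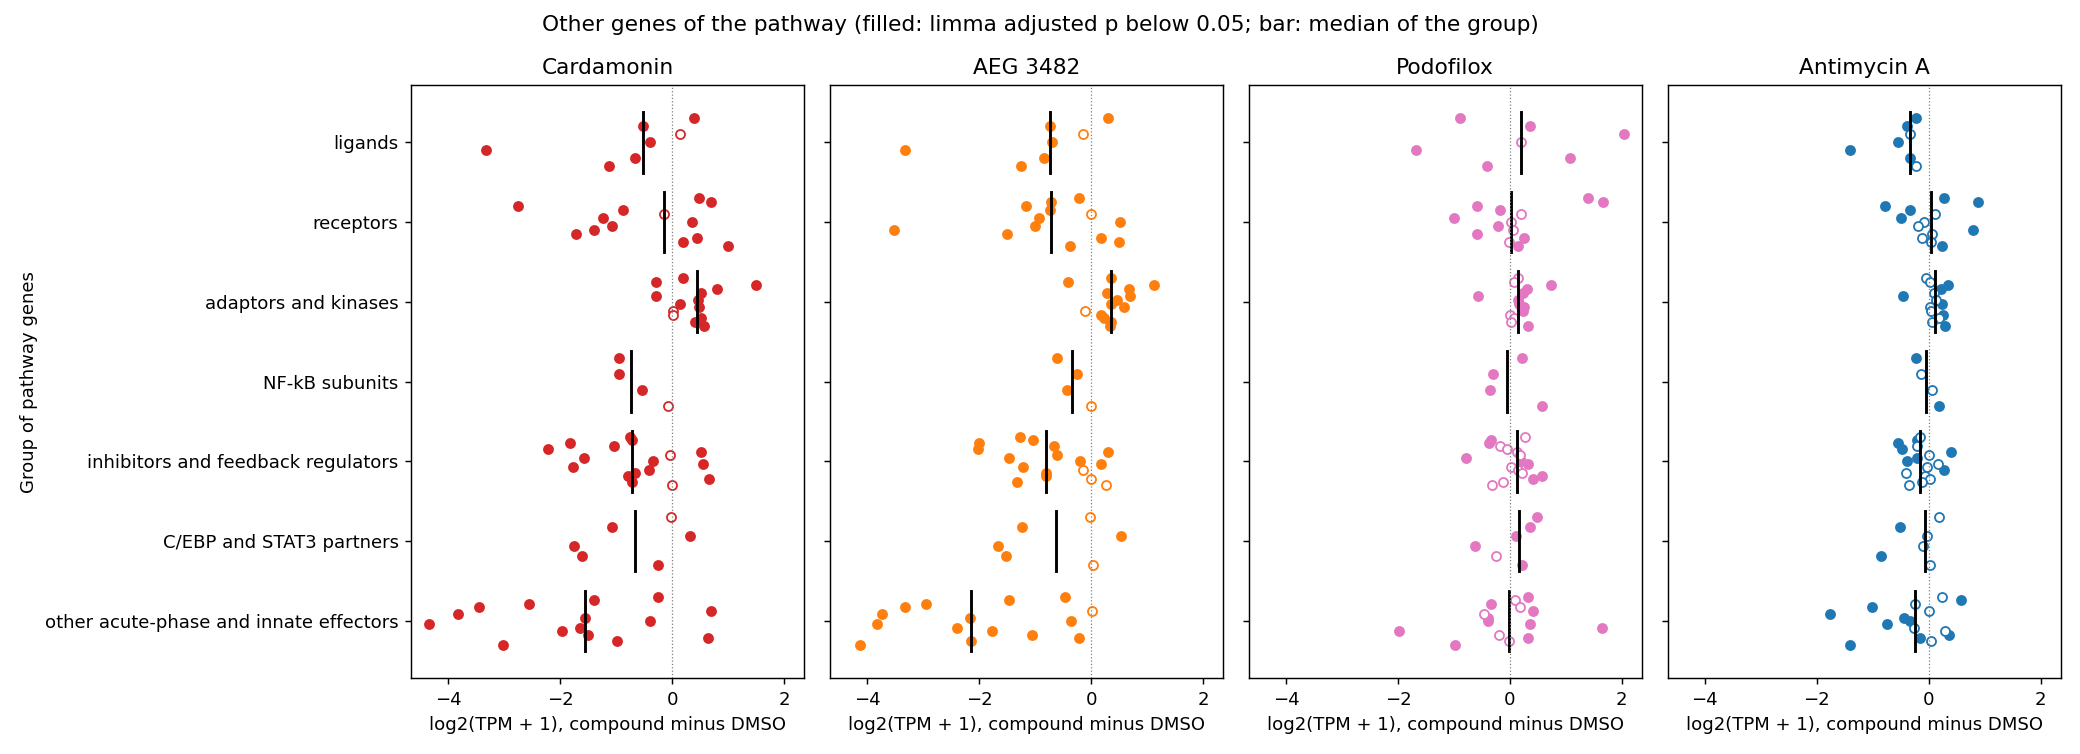
Difference from DMSO on the log2(TPM + 1) scale (horizontal axis) for 76 other genes of the pathway, in rows by group and panels by compound; each point is a gene, filled where the limma adjusted p is below 0.05, and bars are group medians. Under Cardamonin and AEG 3482 the medians of adaptors and kinases lie to the right of 0 (0.44 and 0.36). Those of acute-phase effectors lie to the left (−1.57 and −2.14), though single genes of both groups lie on the other side.

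The genes whose group means were most like those of the 3 described genes were found among 10205 genes with a mean of at least 5 TPM in some group. The measure was Pearson's r over the 9 group means of log2(TPM + 1), given as a description over means that share a cell line and a normalization. For Saa3 they were Ch25h, an oxysterol-producing enzyme (r = 0.99), Tnfsf11, a TNF-family ligand (0.99), and Arid5a, a nucleic acid-binding protein (0.99). Ch25h went from 28.3 TPM in DMSO to 32.0 under Podofilox, 1.90 under Cardamonin and 0.578 under AEG 3482. For Nos2 they were Dact2, Gdnf and Iglon5 (0.98 each), and Gdnf, a neurotrophic factor, went from 12.9 TPM in DMSO to 19.4 under Podofilox and 4.53 under AEG 3482. With Cardamonin Gdnf was 10.9 TPM, a smaller fall in proportion than that of Nos2 (23.0% of its DMSO mean). For Il6 they were Herpud1, Fntb and Slc16a1 (0.98 each), and Slc16a1, a lactate transporter, went from 101 TPM in DMSO to 151 under Podofilox and 45.3 under AEG 3482. With Cardamonin Slc16a1 was 70.0 TPM, also a smaller fall in proportion than that of Il6 (13.4% of its DMSO mean). Fntb overlaps Churc1 on the same strand, and 9.51% of the transcript words of Ch25h occur in Gm26902, so the levels of Fntb and Ch25h are uncertain.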

How the data were processed

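Total RNA from 30 libraries was ribodepleted and sequenced, per the labels' protocols. FastQC, kallisto 0.43.1 and the mm10 build are named in the submitters' processing notes, and tximport and DESeq2 in the series text. The deposited table holds TPM made by the authors; the annotation of their index and the strand setting are not given in the sources used here. Sequencing depth is unknown, so no counting intervals are given.

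Identifiers were matched to GENCODE M21, which gave a symbol for 29426 of 29861 genes, with 435 unmatched. The 13644 genes that reached 1 TPM in 3 or more libraries were fitted with limma 3.58.1 in R 4.3.3 on log2(TPM + 1), with 1 mean for each of 9 groups and variances moderated along an intensity trend. P-values were adjusted by Benjamini-Hochberg over all fitted genes, separately for each comparison, and called below 0.05. The fit was tested on simulated data. DMSO was compared with each of 8 compounds and the compounds with each other in 28 pairs. The 10 genes and the pathway and marker lists were chosen with earlier results of these data known. Beside the 10 genes, the text names the 3 genes most alike to Saa3, Nos2 and Il6 and the 2 genes with the largest range of group means in each pathway list. Shared sequence is the percentage of a gene's 31-base words that occur in another gene's transcripts. Alternatives were other pseudocounts, filters, scalings and models, and leaving out each library. Library numbers run within groups in the labels, so a preparation batch and the group cannot be told apart.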

Additional observations from a re-analysis of the deposited data

Results flagged for a closer look

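Socs3 in DMSO replicate 1 stood apart from the other 5 DMSO libraries, at 113.0 TPM, with a gap to its nearest neighbour of 0.829 of the whole range. It was 1 of 24 genes examined over the 6 DMSO libraries, and chance gives about 1 in 20.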

How the results depend on the processing

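Of the 37 calls of single genes against DMSO, 29 passed with the same sign in each of 19 alternatives, and 8 lost the threshold in at least 1, as given beside each gene. Where a call was lost, the cause was not tested beyond the fewer libraries in fits that left one out.

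For Dihydrorotenone, 1963 genes passed in all, 898 in a fit of these 2 groups alone and 1233 to 2179 with 1 library left out (1233 without its replicate 1, 1266 without its replicate 2). Of the 7 tested genes, 1 instead of 2 passed under Dihydrorotenone in that separate fit, under median-ratio scaling, quantile normalization, no filter on low values and no intensity trend. With 1 library left out, the count ranged from 1 to 2 for Dihydrorotenone, from 3 to 5 for Antimycin A and from 3 to 5 for Clofilium tosylate.

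The deviations of same-numbered libraries of different groups had a median correlation of 0.00799 (from −0.107 to 0.151), against 0.00081 for differently numbered ones. Of 30 libraries, 13 were closest to one with their own number. No chance level was computed for that count, so whether the numbers pair the samples was not tested. With a replicate block, the counts of the 7 tested genes kept their values for each compound, 126 pair differences became 129, and 1963 genes called under Dihydrorotenone became 1680.

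The sign of 9 differences from DMSO that did not pass the test turned in some alternatives, with adjusted p of at least 0.625 by limma wherever it turned. For C3 under Diphenyleneiodonium Cl (0.0039) it was −0.016 with median-ratio scaling, −0.061 with quantile normalization, −0.015 with the replicate block, −0.021 without the 20 most abundant genes and −0.029 to 0.051 with 1 library left out; C3 under Dihydrorotenone (0.06) was −0.019 with quantile normalization. Icam1 with the replicate block was −0.054 under Antimycin A, −0.053 under BerberineA and −0.0032 under Dihydrorotenone, and with 1 library left out −0.019 to 0.063 and −0.052 to 0.18 for the first pair. Nfkbia under Podofilox was −0.019 with median-ratio scaling, −0.017 with quantile normalization, −0.0082 with the replicate block and −0.018 to 0.038 with 1 library left out. Relb under Dihydrorotenone (−0.015) was 0.020 with median-ratio scaling, 0.016 with quantile normalization and −0.066 to 0.037 with 1 library left out, and under Antimycin A and BerberineA it ran from −0.00082 to 0.10 and from −0.00051 to 0.10.

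Log2 differences of Il6 and Nos2 under AEG 3482 depend on the added constant, as do those of other low values. Depth is unknown, so values listed at 0 carry no limit.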
